A study of Mus musculus with 12 samples.

Results

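The hedgehog pathway was followed through 9 of its genes in sorted mouse glioma cells. These were the zinc finger transcription factors Gli1, Gli2 and Gli3, the receptor Ptch1, the signal transducer Smo, the inhibitor Sufu, the co-receptors Boc and Cdon, and the ligand-binding inhibitor Hhip. Members were the genes of this list that had a probe set paired with that symbol alone, and where a gene had several such probe sets the brightest by its mean over all 12 arrays was used. All 9 had one, of 19938 genes measured. The pathway was chosen by a measured value, the strong difference of Gli3 between the tumor types on these same arrays, so the group difference of Gli3 is given below as a description without a test.

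The study compared 2 tumor types that differ in EGFR phosphorylation and in invasive growth, pEGFR-Hi and pEGFR-Lo. Both were derived from neural progenitor cells of the subventricular zone that lacked Ink4a/Arf, carried human EGFRvIII, the constitutively active variant of the EGF receptor, and were passaged as intracranial tumors, so the deletion and the transgene are shared by all samples. Cells of either type, 2 µl at 200000 cells per µl, were injected into the brains of FVB mice, and ZsGreen-positive tumor cells were sorted from 6 pEGFR-Hi and 6 pEGFR-Lo brains, with 1 array per mouse. Brains were taken near the median survival of each tumor type, so tumor line and time since injection cannot be told apart. Each group came from 1 tumor line, and the p-values therefore measure the spread among mice and not among lines.

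Values are log2 intensities after RMA on Affymetrix Mouse Gene 1.0 ST arrays. They are relative to the other genes of the same array. In sorted cells measured in bulk, fewer cells that express a gene and less RNA of it in each cell cannot be told apart. Genes were called where limma gave an adjusted p (Benjamini-Hochberg) under 0.01 together with at least a 2-fold difference. Background was set at 4.10, the level below which the means of 95% of 1027 olfactory receptor genes lay. Where the lower group was not above it, a fold is given against background as a lower bound. Errors are SD over 6 mice of a group unless stated otherwise. Brightness depends on the probes, so levels were compared between groups and not between genes.

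Arrays of 1 tumor type correlated at 0.991 to 0.994 in pEGFR-Hi and at 0.985 to 0.993 in pEGFR-Lo, against 0.944 to 0.959 between types. pEGFR-Lo replicates 3 and 6 stood apart in 10 interferon-stimulated genes, whose mean was 5.25 and 5.14 there, 6.27 to 6.91 in the other pEGFR-Lo mice and 8.01 to 9.31 in pEGFR-Hi mice. Of 11 neural progenitor markers, 1 was called toward pEGFR-Hi (Prom1, at least 3.58-fold) and 1 toward pEGFR-Lo (Fabp7, 2.58-fold), while Pax6, Hes1 and Sox2 lay 1.99-, 1.93- and 1.42-fold higher in pEGFR-Hi without overlap and Vim was at 11.5 and 11.6. Of 12 neuron markers 1 was called, Map2, which was 3.84-fold higher in pEGFR-Lo (limma adjusted p = 7.21e-09). The neuron list means were 4.40 to 4.47 in pEGFR-Hi mice and 4.69 to 4.98 in pEGFR-Lo mice, with Snap25 below background in all pEGFR-Hi mice and at 4.15 to 4.55 in pEGFR-Lo mice. Of 9 microglia and leukocyte markers, 5 lay above background in at least 1 group's mean, such as Cx3cr1 (pEGFR-Hi 5.28, pEGFR-Lo 5.13). The leukocyte genes Ptprc and Csf1r lay below background in all 12 arrays. The myelin gene Mbp was at 4.57 and 4.66, the smooth muscle gene Acta2 at 6.72 and 6.79, and the erythroid gene Alas2 at 4.56 and 4.24 in pEGFR-Hi and pEGFR-Lo. Of 8 astrocyte markers 4 were called higher in pEGFR-Lo, among them Slc1a3 and S100b, and 1 in pEGFR-Hi, Gfap, while Aldoc lay 1.37-fold higher in pEGFR-Hi, with list means of 6.29 to 6.62 in pEGFR-Hi mice and 7.67 to 8.11 in pEGFR-Lo mice. Of 9 endothelial and mural markers 1, the pericyte gene Rgs5, was called, with pEGFR-Lo at least 11.2-fold above pEGFR-Hi. Among the 9 microglia and leukocyte markers, Cd68 was at 6.48 in pEGFR-Hi and 5.24 in pEGFR-Lo, 2.36-fold higher in pEGFR-Hi. P2ry12 was at 4.69 and 6.43, 3.36-fold higher in pEGFR-Lo. For reference, 3.99% of all genes were called toward pEGFR-Hi and 5.06% toward pEGFR-Lo. The part of these marker and interferon differences in the results below was not tested.

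Hedgehog ligands bind Ptch1, which otherwise keeps Smo inactive. Active Smo gathers in the primary cilium and frees the Gli factors from Sufu. Gli2 and Gli3 then act as full-length activators, whereas without signal Gli3 in particular is cut to a repressor. Gli1 is an activator only and is itself induced by the pathway, as are Ptch1 and Hhip, both of which restrain the signal, so the RNA of Gli1, Ptch1 and Hhip is commonly read as pathway output. In the brain the pathway patterns the ventral neural tube and maintains neural progenitors, including those of the subventricular zone.

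The sequences upstream of the genes that the results turn on are shown first, because Gli factors act by binding DNA near their targets. Each is the 250 bases before the annotated start in RefSeq's GRCm38.p6, 5′ to 3′ on the strand of the gene. Capitals mark CCACCC or its reverse complement GGGTGG, the core of the Gli consensus GACCACCCA. Gli3 (chr13:15463473-15463722, plus strand) is shown as the factor that differed most, Ptch1 (chr13:63565736-63565985, minus strand) and Hhip (chr8:80058009-80058258, minus strand) as feedback targets, and Evc (chr5:37336882-37337131, minus strand) and Evc2 (chr5:37338228-37338477, plus strand) as neighbouring genes that moved together.
Gli3: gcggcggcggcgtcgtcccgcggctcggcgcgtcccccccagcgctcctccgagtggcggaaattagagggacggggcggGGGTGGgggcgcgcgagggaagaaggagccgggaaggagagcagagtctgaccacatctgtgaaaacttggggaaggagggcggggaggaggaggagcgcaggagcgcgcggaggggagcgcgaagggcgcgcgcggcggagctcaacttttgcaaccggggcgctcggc
Ptch1: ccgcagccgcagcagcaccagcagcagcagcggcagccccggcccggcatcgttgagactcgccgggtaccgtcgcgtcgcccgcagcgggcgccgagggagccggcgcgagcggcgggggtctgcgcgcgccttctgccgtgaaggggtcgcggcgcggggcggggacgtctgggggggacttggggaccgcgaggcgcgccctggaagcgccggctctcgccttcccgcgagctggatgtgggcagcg
Hhip: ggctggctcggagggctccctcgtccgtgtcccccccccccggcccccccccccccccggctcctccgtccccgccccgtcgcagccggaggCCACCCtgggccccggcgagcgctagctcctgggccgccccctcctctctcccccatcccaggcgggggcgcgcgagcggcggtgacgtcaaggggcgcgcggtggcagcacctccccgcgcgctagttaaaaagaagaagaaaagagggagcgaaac
Evc: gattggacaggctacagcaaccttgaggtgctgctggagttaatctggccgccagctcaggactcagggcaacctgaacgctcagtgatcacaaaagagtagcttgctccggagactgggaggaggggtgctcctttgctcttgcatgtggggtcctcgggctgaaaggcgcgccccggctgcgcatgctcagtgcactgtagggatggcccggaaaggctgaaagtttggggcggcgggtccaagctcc
Evc2: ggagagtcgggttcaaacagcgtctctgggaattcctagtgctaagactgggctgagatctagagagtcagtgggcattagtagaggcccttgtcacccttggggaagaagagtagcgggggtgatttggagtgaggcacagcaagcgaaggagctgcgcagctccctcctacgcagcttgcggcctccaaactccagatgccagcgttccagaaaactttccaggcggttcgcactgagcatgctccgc

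The windows of Gli3 and Hhip each held the core once, and those of Ptch1, Evc and Evc2 did not hold it. Of the 7 members with a window in the table, 4 held it on either strand (Gli2, Gli3, Hhip and Smo), against 28.1% of 32851 windows of all genes. The full motif, GACCACCCA or TGGGTGGTC, was in 0 of the 7 windows and in 0.225% of all. The windows of Gli3, Ptch1 and Hhip were 72.8%, 78.4% and 76.0% G and C, against a median of 52.4% over all windows. These matches are a description of letters within a short window, and no binding was measured.

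Gli3 was well expressed in pEGFR-Hi and close to background in pEGFR-Lo. Its lowest, median and highest values were 8.80, 8.89 and 9.27 in pEGFR-Hi mice and 3.37, 3.88 and 4.32 in pEGFR-Lo mice. The groups lay far apart, and 1 of 6 pEGFR-Lo mice, replicate 3, was above background. The means were 8.96 ± 0.19 and 3.85 ± 0.31, which puts Gli3 at least 28.9-fold higher in pEGFR-Hi.

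Gli2, the main activator of the pathway in most tissues, was also higher in pEGFR-Hi. It ranged from 7.22 to 7.85 with a median of 7.40 in pEGFR-Hi mice and from 5.30 to 6.01 with a median of 5.79 in pEGFR-Lo mice, above background in all 12. The groups did not overlap. Gli2 was 3.17-fold higher in pEGFR-Hi, a log2 difference of 1.66 with an SE of 0.13 (limma adjusted p = 3.02e-08).

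Gli1, the factor that is both effector and target, did not differ detectably. Its values were 4.89, 5.13 and 5.23 (lowest, median, highest) in pEGFR-Hi mice and 4.95, 5.11 and 5.23 in pEGFR-Lo mice. The groups covered nearly the same range, about 1 log2 unit above background in all 12 arrays. The log2 difference was 0.02 (95% interval -0.16 to 0.19, limma adjusted p = 0.918), so the interval reached from 1.12-fold lower to 1.14-fold higher in pEGFR-Hi.

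**Figure D1:**
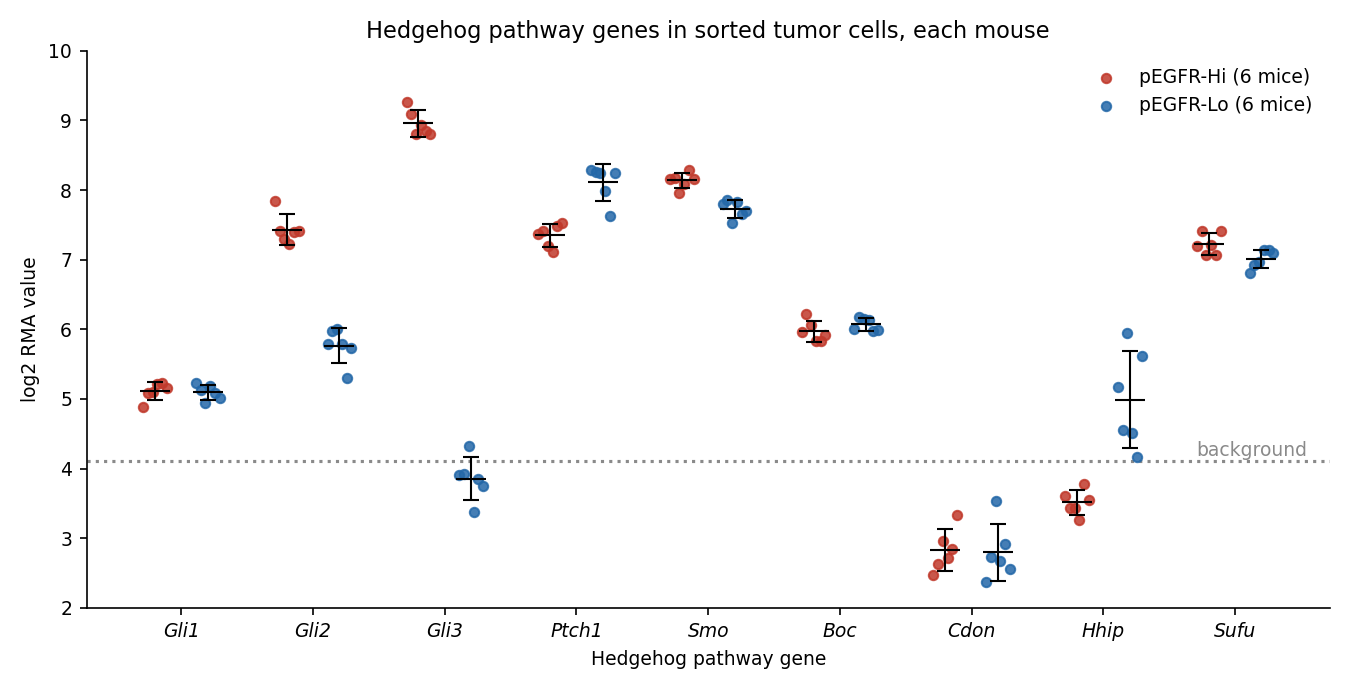
log2 RMA values of the 9 hedgehog pathway genes in each mouse, 6 pEGFR-Hi in red and 6 pEGFR-Lo in blue, with the mean and SD in black and the background level of 4.10 as a dotted line. Gli3 and Gli2 lie higher in pEGFR-Hi, Ptch1 and Hhip lie higher in pEGFR-Lo without overlap, Gli1 overlaps fully and Cdon lies below background in all 12 arrays.

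Ptch1, which encodes the hedgehog receptor and is a direct target, differed in the opposite direction to Gli3. Its lowest, median and highest values were 7.12, 7.39 and 7.52 in pEGFR-Hi mice and 7.63, 8.25 and 8.29 in pEGFR-Lo mice. Every pEGFR-Lo mouse was above every pEGFR-Hi mouse, with pEGFR-Lo replicate 5 the closest. Ptch1 was 1.70-fold higher in pEGFR-Lo (95% interval 1.43 to 2.02-fold, limma adjusted p = 7.54e-05), which passed the limit on p but not the limit of 2-fold, so it was not called.

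Hhip, a membrane protein that binds and sequesters hedgehog ligands, was called higher in pEGFR-Lo. It was at 3.27, 3.50 and 3.78 (lowest, median, highest) in pEGFR-Hi mice, below background in all of them, and at 4.16, 4.86 and 5.94 in pEGFR-Lo mice, above background in all of them. The groups did not overlap. The log2 difference was -1.48 with an SE of 0.25 (limma adjusted p = 1.49e-04), and, set against background, pEGFR-Lo exceeded pEGFR-Hi at least 1.85-fold. That bound is under the 2-fold limit, so the call of Hhip rests on pEGFR-Hi values below background.

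Hhip varied among the pEGFR-Lo mice more than any other member, with an SD of 0.70. Of the 13783 genes above background in at least 1 group, 1.31% had a larger SD in pEGFR-Lo. The highest values, 5.94 and 5.61, were those of replicates 3 and 6, the mice that stood apart in interferon-stimulated genes. Rgs5 also varied among pEGFR-Lo mice, with an SD of 1.24. Like Hhip, it was highest in replicate 3 (8.80) and lowest in replicate 5 (5.72). Whether Hhip goes with either was not tested. Without pEGFR-Lo replicates 3 and 6, the log2 difference of Hhip was -1.08 (limma adjusted p = 1.23e-04). Hhip was still called, again against pEGFR-Hi values below background. In the same fit Ptch1 differed by -0.69 (adjusted p = 0.00103) and Gli2 by 1.71 (adjusted p = 4.98e-07).

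Smo, the transducer, passed the limit on p but not the fold limit. It ranged from 7.95 to 8.29 in pEGFR-Hi mice and from 7.52 to 7.86 in pEGFR-Lo mice, without overlap, and was 1.33-fold higher in pEGFR-Hi (limma adjusted p = 7.58e-04). Sufu, which holds Gli factors in the cytoplasm, was at 7.22 ± 0.15 in pEGFR-Hi and 7.01 ± 0.13 in pEGFR-Lo. Its groups overlapped, and the log2 difference of 0.21 (95% interval 0.02 to 0.40) did not pass the limit (limma adjusted p = 0.0794).

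Of the co-receptors among the members, Boc did not differ detectably and Cdon lay too low to tell. Boc, a ligand-binding protein of the immunoglobulin superfamily, was at 5.97 ± 0.15 in pEGFR-Hi and 6.07 ± 0.09 in pEGFR-Lo, a log2 difference of -0.10 (95% interval -0.28 to 0.08, limma adjusted p = 0.396). Cdon, its relative, was at 2.83 ± 0.30 and 2.79 ± 0.40, below background in all 12 arrays, so its probe set gives neither a level nor a fold.

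Leaving Gli3 aside, 1 of the other 8 members (Gli2) was called toward pEGFR-Hi, 1 (Hhip) toward pEGFR-Lo, and 6 were not called. Over all 19938 genes, 3.99% were called toward pEGFR-Hi and 5.06% toward pEGFR-Lo. With an adjusted p under 0.05 and no limit on fold, 2 of the 8 lay toward pEGFR-Hi (19.4% of all genes) and 2 toward pEGFR-Lo (16.6%). The groups did not overlap for 2 of them with pEGFR-Hi above (12.2% of all genes) and for 2 with pEGFR-Lo above (11.1%). The median log2 difference was 0.02 over the 8 members and 0.01 over all genes.

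Whether output followed Gli3 was also looked at among mice of 1 tumor type, because the types form separate clusters and allow no pooled value. Of the 6 relations planned, 4 rest on values at or near background and cannot show one, as Gli3 was below background in 5 of 6 pEGFR-Lo mice and Hhip in all 6 pEGFR-Hi mice. Among the 6 pEGFR-Hi mice, Gli3 and Gli1 had a Pearson r of -0.79 (exact permutation p = 0.125) and a Spearman rho of -0.49 (exact p = 0.356). The sign of r turned to 0.66 without the 2 mice farthest from the median Gli3, so the value rests on those mice. For Gli3 and Ptch1, r was 0.01 (exact p = 1) and rho -0.14 (exact p = 0.803), with r of -0.56 without the 2 farthest mice. Adjusted over the 6 relations, the exact p-values of r were 0.506 for Gli1 and 1 for Ptch1, and those of rho 0.803 for both.

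**Figure D2:**
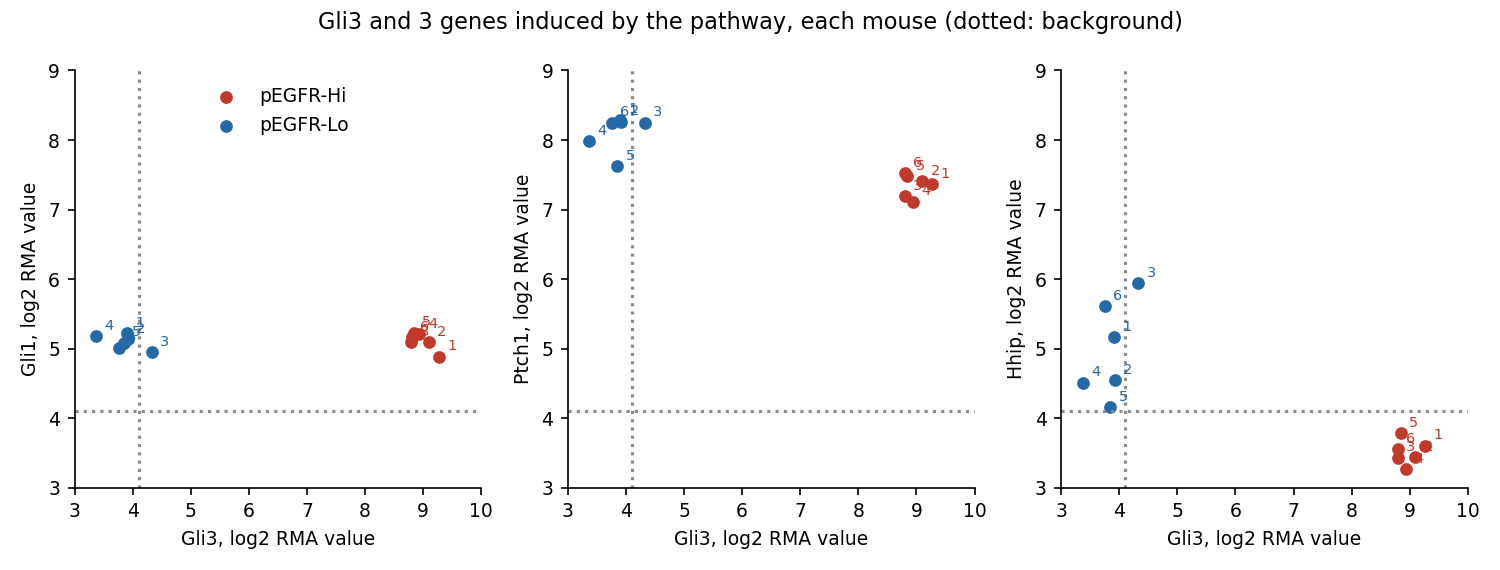
Gli3 on the horizontal axis against Gli1, Ptch1 and Hhip on the vertical axes, all as log2 RMA values, one point per mouse with its replicate number, pEGFR-Hi in red, pEGFR-Lo in blue and the background level dotted. The pEGFR-Hi mice sit at Gli3 values of 8.80 to 9.27 with Gli1 overlapping the pEGFR-Lo mice and with Ptch1 and Hhip below them.

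The wider pathway, from ligand production to the Gli factors, held 44 listed genes, of which 40 were measured. Of the 39 besides Gli3, 3 (Gli2, Evc and Evc2) were called toward pEGFR-Hi, against 3.99% of all genes. Another 2 (Disp2 and Hhip) were called toward pEGFR-Lo, against 5.06%, and 34 were not called. The median log2 difference was -0.003 over the 39 genes and 0.01 over all genes. The probe sets paired with Disp1 have IDs that lie among those of other chromosomes, so its value was not read. Disp1 was not called, and it stays in the counts and medians of its lists.

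Of 9 genes of ligand production and release, 0 were called higher in pEGFR-Hi (3.99% of all genes) and 1, Disp2, in pEGFR-Lo (5.06%). Counted at an unadjusted p under 0.05, 2 lay toward pEGFR-Hi, with Disp1 among them, and 3 toward pEGFR-Lo. At that limit, 4586 and 3945 of all 19938 genes did. SAM also called 0 and 1 of the list. Disp2, a transmembrane protein related to the transporter Disp1 that releases lipid-modified ligand, was at 4.97 ± 0.43 in pEGFR-Hi and 8.85 ± 0.45 in pEGFR-Lo. It was 14.7-fold higher in pEGFR-Lo (limma adjusted p = 8.68e-10). The ligand genes themselves did not differ detectably. Shh was at 4.32 ± 0.15 and 4.40 ± 0.29 (adjusted p = 0.681). It lay close to background, with pEGFR-Lo replicate 1 below it at 3.99, so its values can hardly show a difference. Ihh was at 4.94 ± 0.10 and 4.86 ± 0.17 (adjusted p = 0.603) and Dhh at 5.77 ± 0.25 and 6.15 ± 0.36 (adjusted p = 0.0781).

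Of 7 measured genes of reception, 1 (Hhip) was called, toward pEGFR-Lo (5.06% of all genes), and 0 toward pEGFR-Hi (3.99%). Gas1, a membrane co-receptor that helps ligand bind Ptch1, was at 8.34 ± 0.20 in pEGFR-Hi and 7.70 ± 0.14 in pEGFR-Lo. It passed the limit on p (limma adjusted p = 7.54e-05) with a difference of 1.56-fold, and its groups did not overlap.

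Of 21 measured genes of transduction, 2 were called toward pEGFR-Hi (3.99% of all genes) and 0 toward pEGFR-Lo (5.06%). At an unadjusted p under 0.05, 9 lay toward pEGFR-Hi and 7 toward pEGFR-Lo, as did 4586 and 3945 of all 19938 genes. SAM also called 2 and 0 of the list. The called pair was Evc and Evc2, which form a complex at the base of the cilium that binds active Smo. Evc ranged from 6.69 to 6.88 in pEGFR-Hi mice and from 4.73 to 5.35 in pEGFR-Lo mice, and was 3.43-fold higher in pEGFR-Hi (limma adjusted p = 1.25e-09). Evc2 ranged from 6.17 to 6.83 and from 4.41 to 5.21, and was 3.23-fold higher (adjusted p = 1.13e-07). Neither gene's groups overlapped. They are neighbours on chromosome 5, transcribed away from each other from starts 1597 bases apart in the annotation, with the upstream windows shown above.

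Several genes that act on Gli proteins differed by less than 2-fold. Btrc, the F-box protein that marks phosphorylated Gli for processing, was 1.67-fold higher in pEGFR-Lo (limma adjusted p = 4.33e-07). So were the Gli kinases Csnk1e, with a log2 difference of -0.59 (adjusted p = 2.10e-06), and Gsk3b, with -0.42 (adjusted p = 0.0019). Another kinase, Csnk1d, was 1.34-fold higher in pEGFR-Hi (adjusted p = 0.001). These pointed in both directions. Tulp3, which carries the inhibitory receptor Gpr161 into the cilium, was 1.38-fold higher in pEGFR-Lo (adjusted p = 3.74e-04). Kif7, a kinesin at the tip of the cilium, had a log2 difference of 0.36 (adjusted p = 0.0315). With an adjusted p under 0.05 and no limit on fold, 6 of the 21 genes lay toward pEGFR-Hi (19.4% of all genes) and 7 toward pEGFR-Lo (16.6%).

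**Figure D3:**
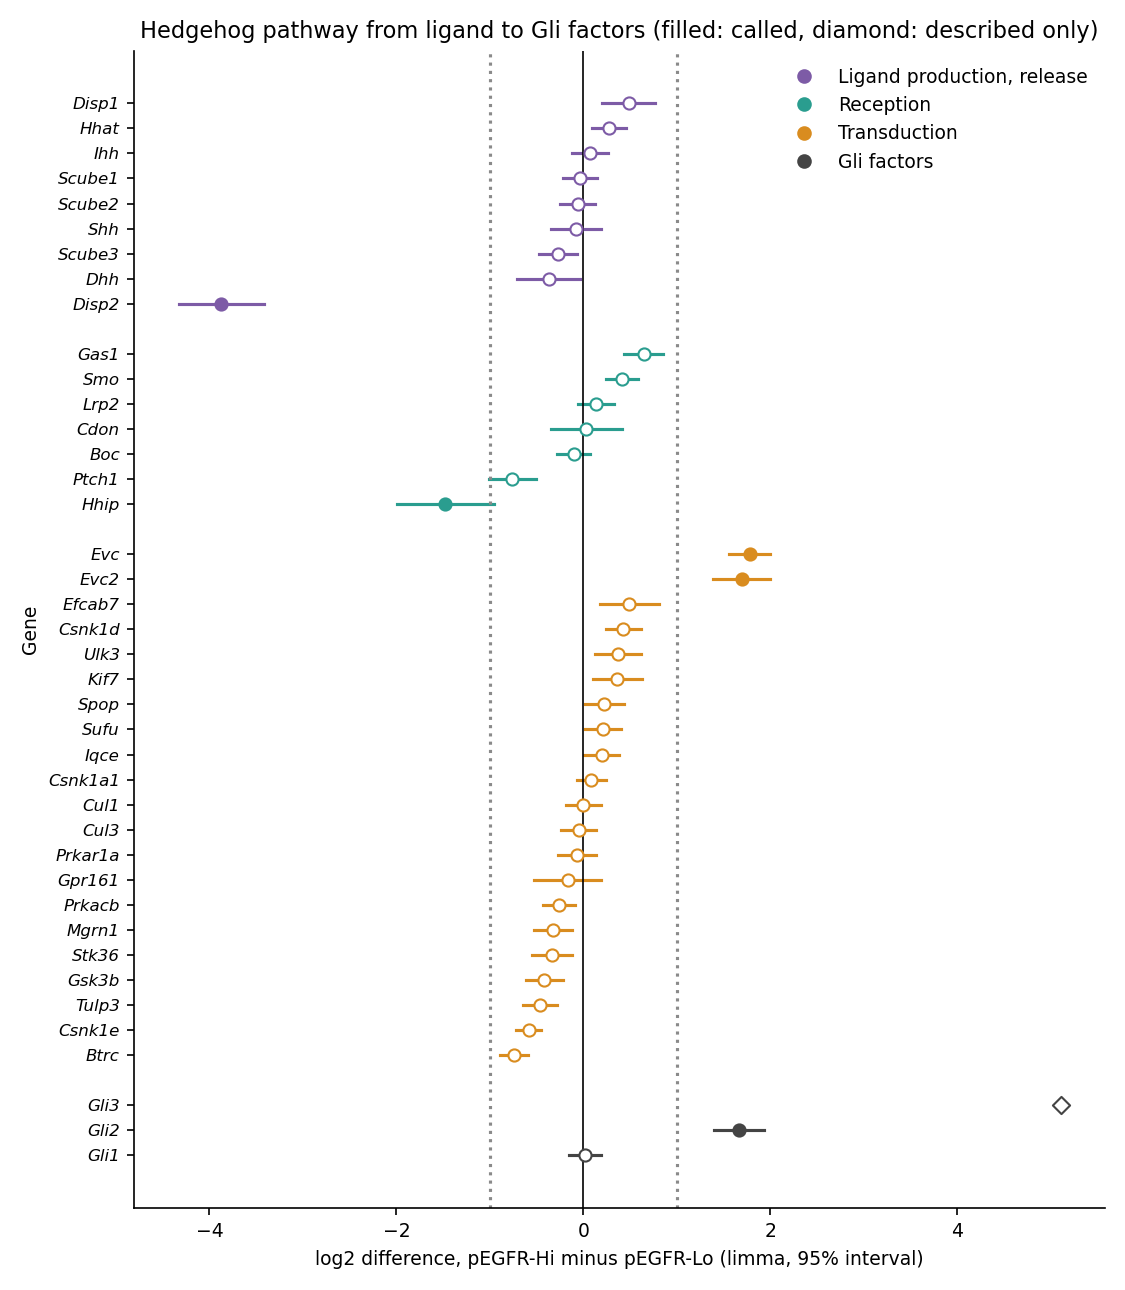
log2 difference, pEGFR-Hi minus pEGFR-Lo, of the 40 measured genes from ligand production to the Gli factors, with 95% intervals from limma and filled points for called genes. Gli3 is a diamond without an interval because its difference is a description, the dotted lines mark 2-fold, and 34 genes are not called. Disp1 is drawn by a probe set whose ID lies among those of other chromosomes.

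Of 22 measured genes reported as hedgehog targets in other tissues, 1 was called toward pEGFR-Hi (3.99% of all genes), 6 toward pEGFR-Lo (5.06%) and 15 were not called. The median log2 difference was -0.13 over the 22 genes and 0.01 over all genes. The forkhead factor Foxf1 was 6.84-fold higher in pEGFR-Lo (limma adjusted p = 7.68e-11), with -2.77 and -4.16 on the log2 scale from its separate probe sets. The homeodomain factor Nkx2-2, which the pathway induces in the ventral neural tube and which also marks oligodendrocyte progenitors, was 6.14-fold higher (adjusted p = 2.60e-10).

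The cyclins Ccnd2 and Ccnd1, which drive entry into the cell cycle and respond to many mitogenic signals, were at 8.44 ± 0.37 and 9.40 ± 0.42 in pEGFR-Hi and at 11.3 ± 0.16 and 11.6 ± 0.08 in pEGFR-Lo. The difference toward pEGFR-Lo was 7.28-fold for Ccnd2 (limma adjusted p = 3.36e-10) and 4.55-fold for Ccnd1 (adjusted p = 1.27e-08). Mycn, which the pathway induces in cerebellar progenitors, was 2.38-fold higher in pEGFR-Lo (adjusted p = 3.14e-06). Sfrp1, a secreted Wnt inhibitor, was 2.11-fold higher there (adjusted p = 0.00103) with overlapping groups, and its log2 difference without pEGFR-Hi replicate 3, -0.94, was under the fold limit. Foxm1, a factor of dividing cells, was the exception at 2.02-fold higher in pEGFR-Hi (adjusted p = 1.24e-06), and was under the fold limit without pEGFR-Hi replicate 1 (0.94), pEGFR-Hi replicate 2 (0.99) or pEGFR-Lo replicate 5 (0.97).

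The Gli, Glis and Zic families share closely related zinc fingers. Of the 9 measured factors besides Gli3, 2 (Gli2 and Zic2) were called toward pEGFR-Hi, against 3.99% of all genes, and 0 toward pEGFR-Lo, against 5.06%. Toward pEGFR-Lo, 2 had an unadjusted p under 0.05, and SAM also called 0. The median log2 difference was 0.29 over the 9 factors and 0.01 over all genes. A further call, of the brightest probe set paired with Zic5, was set aside. Its log2 difference was 1.67, but probe set IDs run in chromosome order, and 19 of the 20 nearest IDs with a gene lay on chromosome 11, whereas Zic5 is on chromosome 14. The probe set paired with Zic5 whose ID lies among those of chromosome 14 differed by 0.47 (adjusted p = 0.0113) and was not called. Zic2, a factor of the dorsal neural tube, was called. It ranged from 6.48 to 7.20 and from 4.08 to 6.02, where the lowest value was that of pEGFR-Lo replicate 3, and was 2.64-fold higher (adjusted p = 5.70e-04). Glis2 was 1.62-fold higher in pEGFR-Hi (adjusted p = 1.14e-04), and Zic1 was not above background in either group's mean.

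Vertebrate hedgehog signaling runs through the primary cilium. Of 57 measured cilium genes, 2 were called higher in pEGFR-Hi (3.99% of all genes), 1 in pEGFR-Lo (5.06%) and 54 not. With an adjusted p under 0.05 and no limit on fold, 24 lay toward pEGFR-Hi (19.4% of all genes) and 9 toward pEGFR-Lo (16.6%). The median log2 difference was 0.20 over the 57 genes and 0.01 over all genes. B9d1, a protein of the transition zone that gates the cilium, was at 8.94 ± 0.11 in pEGFR-Hi and 5.58 ± 0.36 in pEGFR-Lo, or 10.3-fold higher in pEGFR-Hi (limma adjusted p = 3.29e-11).

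Tmem231, another transition zone protein, was 2.13-fold higher in pEGFR-Hi (limma adjusted p = 6.08e-05), and was under the fold limit without pEGFR-Lo replicate 3, at 0.98 on the log2 scale. Tctn2 of the same zone and Inpp5e, a phosphoinositide phosphatase of the ciliary membrane, were 1.62-fold and 1.49-fold higher in pEGFR-Hi (adjusted p = 1.08e-06 and 2.53e-04). Of the transport machinery, Kifap3, a subunit of the kinesin that moves cargo outward, was 2.30-fold higher in pEGFR-Lo (adjusted p = 8.75e-07). Ift20, which shuttles cargo to the cilium, was 1.62-fold higher there (adjusted p = 1.88e-06). Kif3c and Ttc30b were 1.99-fold and 1.59-fold higher there, also without overlap (adjusted p = 7.38e-06 and 1.51e-04). Other transport genes lay the opposite way without overlap. Among them, Ift80 was 1.80-fold, Ttc21b 1.74-fold, Ift88 1.70-fold and Ift74 1.64-fold higher in pEGFR-Hi (adjusted p of at most 0.00154).

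**Figure D4:**
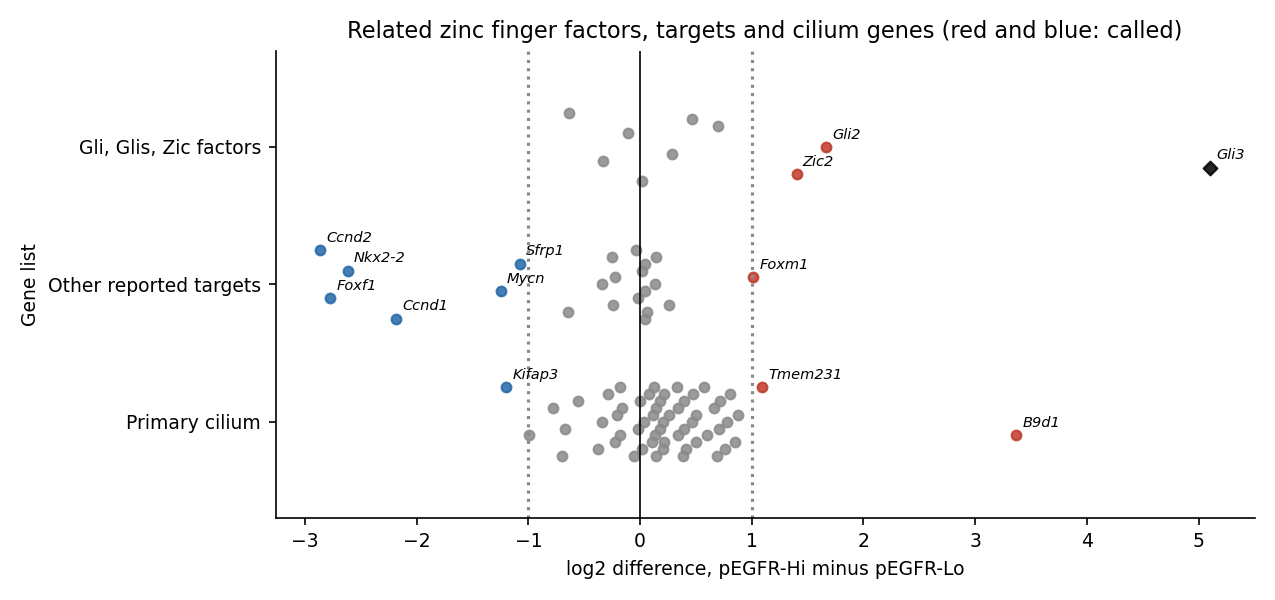
log2 difference, pEGFR-Hi minus pEGFR-Lo, of 10 Gli, Glis and Zic factors, 22 other reported hedgehog targets and 57 primary cilium genes, one point per gene, with called genes named in red (higher in pEGFR-Hi) or blue (higher in pEGFR-Lo) and dotted lines at 2-fold. Gli3 is a black diamond, as a description, and Zic5 is drawn by the probe set whose ID lies on its chromosome. Of the called targets, 6 lie left of 0.

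The neighbours of the called members on the chromosome were also compared. For reference, 3.99% of all genes were called toward pEGFR-Hi and 5.06% toward pEGFR-Lo. Around Gli3 on chromosome 13, 0 of 10 neighbours, 5 measured genes to either side, were called (2 had an unadjusted p under 0.05 in limma, and none reached the fold limit), and their log2 differences ran from -0.50 to 0.77. The highest was that of the adjacent AW209491 (limma adjusted p = 8.37e-05). Inhba, adjacent on the other side, was below background in both means. Around Gli2 on chromosome 1, 1 of 10 was called, the adjacent Inhbb, which encodes an activin subunit and was 2.54-fold higher in pEGFR-Lo (adjusted p = 1.63e-05), opposite to Gli2. Around Hhip on chromosome 8, 1 of 10 was called, the signaling adaptor Gab1, 4 places away, with a log2 difference of -1.38 (adjusted p = 9.31e-07), while the adjacent Anapc10 differed by -0.23 (adjusted p = 0.231).

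**Figure D5:**
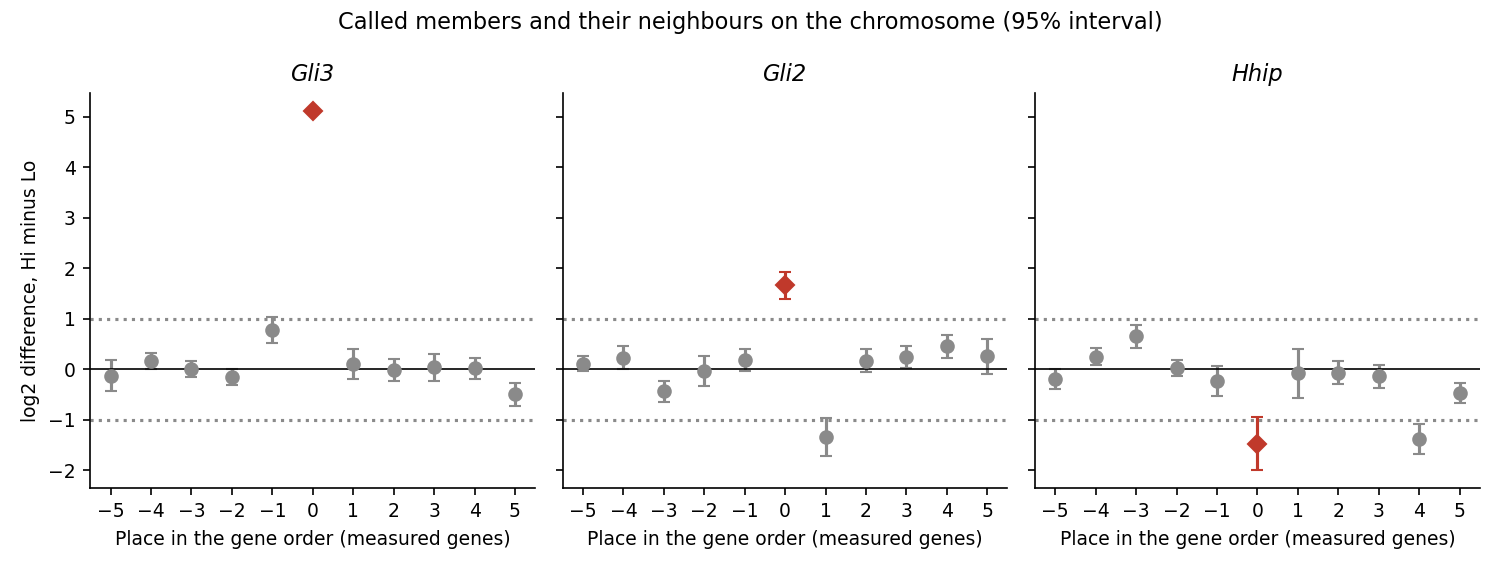
log2 difference, pEGFR-Hi minus pEGFR-Lo, of Gli3, Gli2 and Hhip (red, place 0) and of the 5 nearest measured genes on either side in the annotation's order (grey), with 95% intervals from limma except for Gli3 and dotted lines at 2-fold. The other neighbours of Gli3 and Gli2 lie within 2-fold, with Inhbb next to Gli2 on the other side of 0.

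The genes whose profile over the 12 arrays was most like that of Gli3, after each was centred on its pEGFR-Lo mean, were Fbln2, Eif2s3y, A2m, Gjc1 and Col6a5. Their root mean square distances from Gli3 were 0.21, 0.48, 0.63, 0.65 and 0.83 on the log2 scale. Fbln2, an extracellular matrix glycoprotein, was at 10.5 ± 0.17 in pEGFR-Hi and 5.29 ± 0.20 in pEGFR-Lo. Eif2s3y, a Y-linked translation initiation factor, was at 6.87 ± 0.26 and 2.27 ± 0.22, the latter below background in all 6 mice. The tumor types thus differed in RNA of a Y-linked gene. The paper derives both lines from a shared pool of parental neural progenitor cells. The sample labels do not give the sex of the cells of origin. A difference in sex or in Y chromosome content cannot be told apart from tumor line here, and was not tested. A2m, a secreted protease inhibitor, Gjc1, a gap junction connexin, and Col6a5, a collagen chain, were at 9.59 ± 0.76, 8.46 ± 0.26 and 8.12 ± 0.41 in pEGFR-Hi and at 4.92 ± 0.27, 4.20 ± 0.24 and 4.08 ± 0.23 in pEGFR-Lo. As these genes were chosen for their likeness to Gli3, their values are a description.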

How the data were processed

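RNA of ZsGreen-positive tumor cells was measured on 12 arrays, 6 per tumor type, grouped by the sample labels. The authors deposited log2 values made with RMA in Affymetrix Expression Console, which corrects background, normalizes quantiles across arrays and summarizes each probe set; array medians were 4.81 to 4.88, and the number of arrays limits the precision. Of 35556 probe sets, 21789 were paired with 1 symbol, 1621 with several and 12146 with none. By Entrez ID, 21698 were matched to RefSeq (GRCm38.p6), which served for names, gene order and upstream windows, since no source used here names the genome build of the arrays' annotation. For 999 genes with several probe sets the brightest was used. Of 209 probe sets of listed and named genes, 5 had nearest IDs that lay most often on another chromosome than their gene.

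All 19938 genes were fitted with limma 3.58.1 (lmFit, eBayes) in R 4.3.3, where the p of Gli3 was not used, and SAM with 100 permutations, the test of the paper's methods, was an alternative. Correlations used exact permutations of pairings in Python 3.11.15 (scipy 1.17.1), two-sided. Figures used matplotlib 3.10.9. On simulated arrays of this comparison over 19938 genes limma recovered 97 of 100 genes given a log2 change of 1.5 and 99 of 100 given one of 2, with 0 false calls. The simulated noise was independent for each gene, with its spread within groups. It held no shifts shared by genes and no differences between lines, so the count of false calls does not cover those. Named were the members, the called genes with the lowest adjusted p of each list (at most 4 in the direction with more calls, at most 2 in the opposite one), the 5 genes most like Gli3, the nearest neighbours of called members and the most abundant cell type markers. The other genes named were chosen after their values were seen. Members and lists were chosen with earlier results of these data known. Some genes of the lists were not analysed here.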

Additional observations from a re-analysis of the deposited data

Results flagged for a closer look

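Of 148 groups of 6 values, from 74 of the named genes, 10 held a mouse that stood apart. Its gap to the nearest other was large against the group's range (Dixon's test), where chance alone gives about 1 in 20. Gli2 was at 7.85 in pEGFR-Hi replicate 1, against 7.22 to 7.42 in the other pEGFR-Hi mice. In pEGFR-Hi replicate 3, Nkx2-2 was low at 4.23 (others 4.67 to 4.81), Csnk1d low at 8.98 (9.22 to 9.27), B9d1 high at 9.14 (8.85 to 8.95), Col6a5 high at 8.93 (7.84 to 8.10) and P2ry12 high at 5.60 (4.32 to 4.62). Nkx2-2 was also low in pEGFR-Lo replicate 3, at 6.73 (7.24 to 7.48). The leukocyte genes Ptprc, at 2.62 in pEGFR-Lo replicate 1 (2.86 to 2.99), and Csf1r, at 3.25 in pEGFR-Hi replicate 2 (3.55 to 3.66), were low among values that were all below background. The progenitor gene Prom1 was high in pEGFR-Lo replicate 6, at 4.38 (3.46 to 3.78).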

How the results depend on the processing

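Counts and differences were recomputed under 22 alternatives, 12 of which left out 1 array. Cdon has no value where dim genes were filtered, and the correlations within a tumor type were not recomputed. With an adjusted p under 0.05 and no fold limit, the members higher in pEGFR-Lo were 2 in place of 1. The wider pathway genes, Gli3 included, were then 12 toward pEGFR-Hi and 11 toward pEGFR-Lo (11 and 11 without Gli3), and all genes 3871 and 3314. No other alternative moved these counts, or that of members higher in pEGFR-Hi (Gli3 included), by over 1.5 times. Of the smaller lists, the cilium genes called were 1 to 2 toward either tumor type and the other reported targets 0 to 1 toward pEGFR-Hi. No called gene changed direction. Of the genes not called, 5 of those named changed sign around 0, among them Gli1 and Cdon. Foxm1, Sfrp1 and Tmem231 lost their calls when arrays were left out (Tmem231 at 0.96 on the log2 scale without pEGFR-Lo replicates 3 and 6), and the cause was not tested. Zic5 missed the limits with its other probe set, an alternative chosen after seeing the data. Over the alternatives the log2 difference ran from 1.57 to 1.71 for Gli2, from -0.05 to 0.07 for Gli1, from -0.86 to -0.69 for Ptch1 and from -1.64 to -1.08 for Hhip. Replicate numbers did not pair the mice (correlations of deviations of same-numbered mice from -0.14 to 0.10). With the replicate block, the members called, Gli3 included, were 2 and 1, the wider pathway genes 4 and 2, and all genes 801 and 1008.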

Other observations

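Among the pEGFR-Lo mice, replicate 5 had the lowest value of Gli2 (5.30), Ptch1 (7.63) and Hhip (4.16). Replicate 4 was next lowest for Ptch1 (7.98) and Hhip (4.51). These are values of single mice and were not tested.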
